A study of Homo sapiens with 24 samples.

Results

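The NRF2 antioxidant genes were followed through RNA-Seq of libraries labelled as 3 triple-negative breast cancer (TNBC) cell lines. They are 10 genes chosen by symbol: NFE2L2, KEAP1, NQO1, HMOX1, GCLC, GCLM, TXNRD1, SRXN1, SOD2 and GPX4. All 10 were listed in each of the 4 deposited tables, among 66659 distinct symbols in all, and all 10 passed the minimum mean of 1 in every comparison. The study compared breast cancer stem-like cells (BCSCs) with other cells of the same line, and asked which genes follow the mitotic kinesin KIF20A. Its 24 libraries formed 8 groups of 3.

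Hs578T and HCC70, both wild type, were sorted by flow cytometry into BCSCs (CD24- CD44+ and ALDH+) and into non-BCSCs that lacked both phenotypes. MDA-MB-231 cells carried either a control sgRNA (sgCtrl) or KIF20A sgRNA #1, labelled KIF20A knockdown, delivered by lentivirus. A second set of libraries, also labelled MDA-MB-231, carried an empty vector (EV) or was labelled KIF20A overexpression (OE), and the markers given below go against the cell line label of the latter. The labels speak of biological triplicates without naming separate cultures, so p-values measure the spread between these samples. Each pair of groups also had its own batch number and its own table, so cell line, experiment and batch cannot be told apart, and levels were tested only within a table.

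NRF2, encoded by NFE2L2, is a transcription factor that the cullin adaptor KEAP1 holds at low protein levels in resting cells. Oxidants and electrophiles modify KEAP1, NRF2 accumulates, and with small MAF partners it binds antioxidant response elements near genes for quinone reduction, heme breakdown, glutathione synthesis and the thioredoxin system. SOD2 and GPX4 belong to the same defence against superoxide and lipid peroxides but also answer to other regulators. NRF2 activity is mostly set at the protein level, which RNA-Seq does not measure.

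The antioxidant response element was looked for because it is the sequence through which NRF2 acts. Its core, TGACNNNGC on either strand, was searched in the 250 bases upstream of each RefSeq transcription start of GRCh38.p14, where 9 of the 10 members matched with 17 starts. Of all 35116 such windows, 10.9% held a core. Of the 17 windows of members 4 held one, and they belong to the 3 genes KEAP1, GCLM and TXNRD1. The sequences below are given 5′ to 3′ on the strand of the gene, with the core in capitals and 10 bases on each side, and the AP-1 motif TGACTCA, found in 4.20% of windows, was in 0 of the 17.
KEAP1, chr19:10502807-10502835, minus strand, core on the gene's strand: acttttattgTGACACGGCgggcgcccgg
KEAP1, chr19:10502784-10502812, minus strand, core on the opposite strand: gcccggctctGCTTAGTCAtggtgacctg
GCLM, chr1:93909446-93909474, minus strand, core on the opposite strand: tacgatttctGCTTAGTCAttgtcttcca
TXNRD1, chr12:104215670-104215698, plus strand, core on the gene's strand: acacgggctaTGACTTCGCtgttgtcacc
TXNRD1, chr12:104286920-104286948, plus strand, core on the opposite strand: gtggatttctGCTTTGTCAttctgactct

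The cores began 54 and 31 bases upstream of 1 KEAP1 start (positions -54 and -31), at -34 for GCLM, and at -99 and -102 for different starts of TXNRD1. All 29 bases of both KEAP1 windows and of the TXNRD1 window at -102 lay within annotated exons of the same gene, as did 11 of the 29 bases of the GCLM window and 0 of those of the other TXNRD1 window. A match of these letters is a description and not a measured binding site, and an absent match speaks only of these windows.

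Depth, as reads recovered from TPM, ran from 28403151 to 33973761 per library for Hs578T and from 24984030 to 33986022 for HCC70. The KIF20A depletion libraries had 41424338 to 51018667 reads each, and those with EV or labelled KIF20A OE had 15971297 to 22182293. KIF20A, the gene the study turned on, was higher in BCSCs of Hs578T (217 ± 2.54 TPM in non-BCSCs and 297 ± 25.6 in BCSCs, SD, n = 3) and of HCC70 (71.4 ± 2.69 and 125 ± 3.48 TPM). TPM scale reads for transcript length and to a common total per library. Of the sorting markers, ALDH1A3, an ALDH enzyme, averaged 289 TPM in non-BCSCs and 706 in BCSCs of Hs578T without overlap, while CD24 (86.2 and 83.1 TPM) overlapped and CD44 (558 and 579 TPM) overlapped. In HCC70 CD24 averaged 857 and 692 TPM without overlap, while ALDH1A3 (87.3 and 98.4 TPM) and CD44 (103 and 107 TPM) overlapped. In the depletion table KIF20A was 161 ± 10.9 CPM with sgCtrl and 119 ± 27.0 with the sgRNA. CPM there is the authors' name for reads divided by 1 factor per library, with library totals of 977394 to 1028621. The log2 fold change was -0.45 with limma's adjusted p = 0.690. The lower KIF20A RNA thus did not pass the test across genes, although the 3 libraries of each group did not overlap. For depletion of the protein by its sgRNAs in this line the paper gives an immunoblot, and RNA does not measure protein. In the overexpression table KIF20A was 101, 143 and 124 CPM with EV, and the libraries labelled KIF20A OE had 1348, 269 and 896 CPM.

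Those libraries stood apart from EV in more than KIF20A, and AXL, CD44 and NT5E, markers of the labelled cell line, were near 0 in them. AXL was 811 to 1107 CPM with EV and 0.750 to 0.811 CPM in them, CD44 was 523 to 788 CPM with EV and 0.125 to 1.23 CPM in them, and NT5E was 1191 to 1273 and 0.125 to 0.428 CPM. A list of 6 genes of mesenchymal TNBC cells (CD44, VIM, AXL, CAV1, NT5E and PLAUR) summed to 6100 to 6635 CPM with EV, while the OE-labelled libraries summed to 375 to 819 CPM. Most of the latter sum was VIM, at 2520 to 2735 CPM with EV and 347 to 776 CPM in the OE-labelled libraries. CAV1 (664 to 771 and 13.8 to 26.5 CPM) and PLAUR (182 to 328 and 11.5 to 15.8 CPM) were also lower there but not near 0. A list of 6 genes known from the kidney-derived packaging line in which the study made lentivirus (IRS4, PAX2, NEFL, NEFM, CDKN2A and LIN28B) summed to 0 to 0.048 CPM with EV, where 5 of the 6 were at 0 in every library. The libraries labelled KIF20A OE summed to 1729 to 2280 CPM, and all 6 had a mean of at least 1 CPM there. The same 6 genes summed to at most 0.044 CPM in the depletion table and to 0.476 to 1.33 TPM in Hs578T. In HCC70 they summed to 152 to 235 TPM in non-BCSCs and 153 to 180 TPM in BCSCs. CDKN2A alone made up that level, with means of 194 and 163 TPM, so this gene is not particular to the packaging line. The part of these differences in the members' values was not tested, and in bulk RNA a change in which cells are present cannot be told apart from a change per cell.

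In Hs578T, NQO1 fell in BCSCs and was the only member of the 10 that passed the test (adjusted p under 0.05 by limma across all genes). NQO1 encodes a reductase that turns quinones into hydroquinones and is a widely used readout of NRF2 activity. It measured 1439, 1433 and 1304 TPM in the non-BCSC libraries and 1145, 1083 and 1116 TPM in the BCSC libraries. All 3 BCSC libraries lay below all 3 non-BCSC libraries. The means were 1392 ± 76.6 and 1115 ± 30.9 TPM (SD, n = 3), a ratio of 0.801, and the log2 fold change was -0.32 (SE 0.05) with limma's adjusted p = 0.0133. The call was lost without non-BCSC replicate 1 (log2 fold change -0.29, adjusted p = 0.0606 by limma) and without non-BCSC replicate 2 (-0.30, adjusted p = 0.0795). Of all 13324 genes tested in Hs578T, 7.15% passed in either direction, 2.9% as higher and 4.26% as lower, so 1 of 10 is near the background. An unadjusted p under 0.05 was found for 3 members and for 22.5% of all genes.

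HMOX1, which breaks down heme, measured 43.97, 47.5 and 49.4 TPM in non-BCSCs and 41.6, 38.8 and 41.5 TPM in BCSCs. Its groups did not overlap either, with a log2 fold change of -0.20 (SE 0.06) and an adjusted p of 0.0771 by limma. GCLC, the catalytic subunit of the enzyme that limits glutathione synthesis, measured 37.0, 36.8 and 34.8 TPM in non-BCSCs and 33.4, 33.2 and 33.3 TPM in BCSCs. The groups did not overlap, and the difference of -0.12 (SE 0.04) had an adjusted p of 0.166 by limma. The groups of 3 members thus did not overlap, all with BCSCs lower, while 29% of all genes tested did not overlap in either direction and 17% did so with BCSCs lower. With 3 libraries against 3, the exact permutation test cannot go below p = 0.1, and each of these 3 genes had that value.

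The other 7 members of Hs578T had log2 fold changes between -0.05 and 0.06 and overlapping groups. For the regulators, NFE2L2 was 65.6 ± 1.94 TPM in non-BCSCs and 64.3 ± 1.31 in BCSCs, and KEAP1 was 53.2 ± 2.60 and 54.2 ± 2.05 TPM. GCLM, the modifier subunit that raises the activity of GCLC, was 96.0 ± 7.81 and 95.4 ± 1.12 TPM. TXNRD1, the reductase that recharges thioredoxin, was 272 ± 7.62 and 276 ± 8.12 TPM, and SRXN1, which repairs overoxidized peroxiredoxins, was 94.2 ± 2.85 and 98.3 ± 8.43 TPM. These pairs differed by less than the spread of their libraries. SOD2, the mitochondrial superoxide dismutase, was 80.2 ± 2.57 and 77.3 ± 3.13 TPM. GPX4, which reduces lipid peroxides in membranes, was 180 ± 5.71 and 183 ± 35.6 TPM, and BCSC replicate 2 alone, at 223 TPM, set its wide spread. The ratio of NQO1 to NFE2L2, both per length, was 21.2, 22.2 and 20.2 in non-BCSCs and 17.8, 17.2 and 17.0 in BCSCs (exact permutation p = 0.1, the smallest possible). As NFE2L2 hardly differed, this ratio restates the fall of NQO1. The ratio of GCLM to GCLC did not overlap either, with geometric means of 2.65 in non-BCSCs and 2.87 in BCSCs. Those of NFE2L2 to KEAP1 and of TXNRD1 to NFE2L2 overlapped. In HCC70 the ratio of NQO1 to NFE2L2 overlapped (exact permutation p = 0.6). No share over all genes stands beside these ratios.

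**Figure D1:**
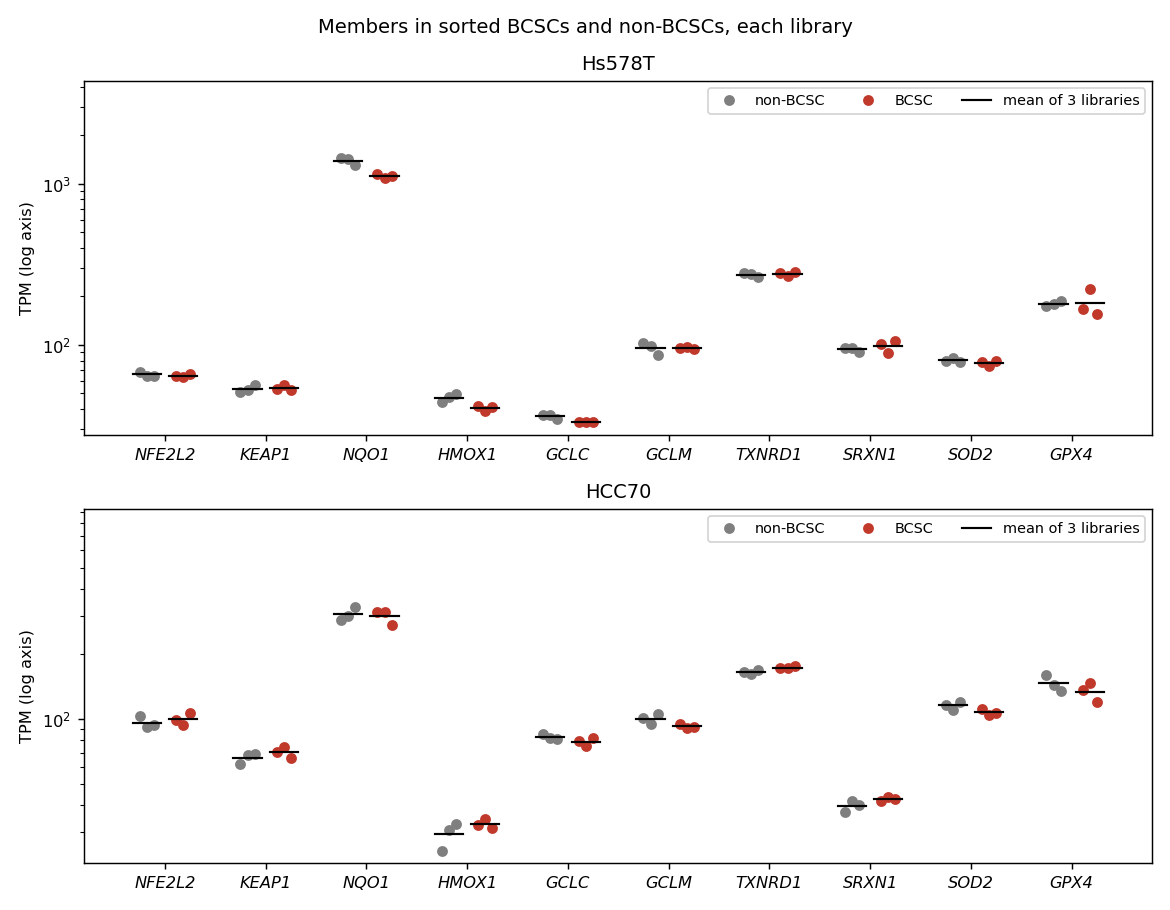
TPM on a log axis for the 10 members in each library of sorted Hs578T (top) and HCC70 (bottom); grey points are non-BCSCs, red points BCSCs, and black lines the means of 3 libraries. NQO1 is the highest member in both lines, and in Hs578T its BCSC libraries (1083 to 1145 TPM) lie below its non-BCSC libraries (1304 to 1439 TPM).

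In HCC70 none of the 10 members passed the test, with adjusted p between 0.246 and 0.843 by limma, and 0 also passed with edgeR and with DESeq2 on recovered reads. No member had an unadjusted p under 0.05, against 23.7% of the 13218 genes tested, of which 2.83% passed after adjustment, 2.28% as higher and 0.552% as lower. These 374 calls over all genes became 32 (without BCSC replicate 1) to 270 (without non-BCSC replicate 1) with 1 library left out. NQO1 was 305 ± 21.2 TPM in non-BCSCs and 299 ± 23.7 in BCSCs (SD, n = 3), a difference of -0.03 (SE 0.08) on the log2 scale. The libraries of 2 members did not overlap between the groups, against 30.9% of all genes (20.9% with BCSCs higher and 10.1% with BCSCs lower). GCLM was 101, 95.1 and 106 TPM in non-BCSCs and 94.5, 91.4 and 91.8 TPM in BCSCs (log2 fold change -0.12, SE 0.06). TXNRD1 was 164, 161 and 168 TPM in non-BCSCs and 172, 172 and 175 TPM in BCSCs (0.07, SE 0.05). GCLM thus lay lower in every BCSC library and TXNRD1 higher, and neither difference passed.

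The remaining members of HCC70 overlapped between the fractions. HMOX1 ranged from 24.7 to 32.7 TPM in non-BCSCs and from 31.5 to 34.7 TPM in BCSCs, with non-BCSC replicate 1 the lowest of the 6. NFE2L2 was 96.0 ± 6.06 and 99.6 ± 6.43 TPM, KEAP1 66.3 ± 3.57 and 70.2 ± 4.23 TPM, and GCLC 82.5 ± 2.33 and 78.5 ± 3.52 TPM. SRXN1 was 39.8 ± 2.49 and 42.8 ± 0.814 TPM, SOD2 116 ± 4.75 and 107 ± 3.28 TPM, and GPX4 146 ± 12.4 and 134 ± 13.5 TPM. Their log2 fold changes lay between -0.13 and 0.17.

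TPM also allowed the members to be ordered by level within a line. In both lines and both fractions NQO1 was first, then TXNRD1 and then GPX4, with no overlap between neighbours. In Hs578T non-BCSCs GCLM, SRXN1, SOD2, NFE2L2, KEAP1, HMOX1 and GCLC followed, and GCLM and SRXN1 were the only neighbours whose libraries overlapped. In HCC70 non-BCSCs SOD2, GCLM, NFE2L2, GCLC, KEAP1, SRXN1 and HMOX1 followed, and the overlapping pair was GCLM and NFE2L2. In BCSCs the overlapping neighbours were SRXN1 and GCLM in Hs578T, and SOD2 with NFE2L2 and NFE2L2 with GCLM in HCC70. GCLC was thus last in Hs578T and in place 7 of the 10 in HCC70. The ratio of GCLM to GCLC was 2.51 to 2.76 in Hs578T non-BCSCs and 1.17 to 1.31 in HCC70 non-BCSCs. The lines were normalized in separate tables, so these levels stand side by side and were not tested.

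The difference of the BCSC effect between the lines was tested by the interaction of fraction and line over the 12 sorted libraries, taken as HCC70 minus Hs578T. None of the 10 members passed, against 7.11% of the 11668 genes tested (5.62% as higher and 1.49% as lower). These 830 calls over all genes became 291 (without Hs578T non-BCSC replicate 2) to 1225 (without Hs578T BCSC replicate 3) with 1 library left out. An unadjusted p under 0.05 was found for 2 members and for 26.8% of all genes. The nearest were HMOX1 (0.37 on the log2 scale, SE 0.12, adjusted p = 0.0872 by limma) and NQO1 (0.29, SE 0.10, adjusted p = 0.0944). HMOX1 passed without HCC70 non-BCSC replicate 3 (0.45, adjusted p = 0.0416 by limma), and NQO1 passed without HCC70 BCSC replicate 3 (0.36, adjusted p = 0.0491 by limma). The fall of NQO1 in Hs578T was therefore not shown to be particular to that line.

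A list of 70 further genes of the same system was read beside the members. It holds regulators such as MAFF and NFE2L3, glutathione, thioredoxin and NADPH enzymes, quinone, aldehyde and xenobiotic enzymes with their exporters (phase II), heme and iron genes, and further superoxide and peroxide enzymes. In Hs578T, 67 of the 70 could be tested, 5 rose and 12 fell in BCSCs, or 25.4% in all against 7.15% of all genes, and the median log2 fold change was -0.08 against -0.01 over all genes. Of the 17 phase II genes 1 rose and 6 fell, and of the 5 heme and iron genes 2 fell. Of the 10 regulators 2 rose, of the 15 glutathione genes tested 2 rose and 2 fell, of the 12 thioredoxin genes 1 fell, of the 6 NADPH genes none passed, and of the 2 superoxide and peroxide genes tested 1 fell. AKR1C2, an aldo-keto reductase, fell from 10.0 ± 0.474 to 7.06 ± 0.427 TPM (log2 fold change -0.45, SE 0.06, adjusted p = 0.00740 by limma). FTL, the light chain of the iron store ferritin, fell from 3524 ± 96.5 to 2713 ± 258 TPM (-0.38, SE 0.07), and MGST2, a microsomal glutathione transferase, fell from 7.27 ± 0.445 to 5.34 ± 0.464 TPM (-0.38, SE 0.08). NFE2L3, a relative of NRF2, rose by 0.34 (SE 0.07) from 28.0 ± 2.48 TPM, and MAFF, a small MAF protein, rose by 0.31 (SE 0.05) from 12.8 ± 0.335 TPM. MGST1, another microsomal glutathione transferase, rose by 0.29 (SE 0.05) from 106 ± 5.59 TPM.

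The count of 17 leaned on single libraries of Hs578T. It was 6 without non-BCSC replicate 1, 1 without non-BCSC replicate 2, 9 without non-BCSC replicate 3 and 2 without BCSC replicate 1, while the calls over all genes went from 953 to between 343 and 865 with 1 library left out. AKR1C2 still passed whichever library was left out, whereas FTL, MGST2, NFE2L3, MAFF and MGST1 each lost the call without at least 1. Under the median of ratios the calls over all Hs578T genes split into 620 higher and 573 lower instead of 386 and 567, and the list still had 5 higher and 12 lower.

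In HCC70, 65 of the 70 could be tested, 4 rose and 0 fell, or 6.15% against 2.83% of all genes, of whose 374 calls 301 were higher, and the median was 0.05 against 0.02 over all genes. SESN2, a stress sensor that aids the repair of peroxiredoxins, rose from 30.8 ± 0.289 to 43.5 ± 1.03 TPM (log2 fold change 0.49, SE 0.05, adjusted p = 0.00594 by limma). MAFF rose from 9.39 ± 1.01 to 13.3 ± 1.12 TPM (0.46, SE 0.10), and TXNIP, an inhibitor of thioredoxin, rose from 203 ± 5.83 to 258 ± 2.39 TPM (0.35, SE 0.05). The fourth was GSS, which completes glutathione and was named after its values were seen, at 144 ± 6.69 and 173 ± 3.52 TPM (0.27, SE 0.05). The count was 2 whichever non-BCSC library was left out and 1 whichever BCSC library was left out. MAFF was called as higher in both lines with all libraries, and in HCC70 it lost the call whichever library was left out (adjusted p between 0.0651 and 0.184 by limma).

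**Figure D2:**
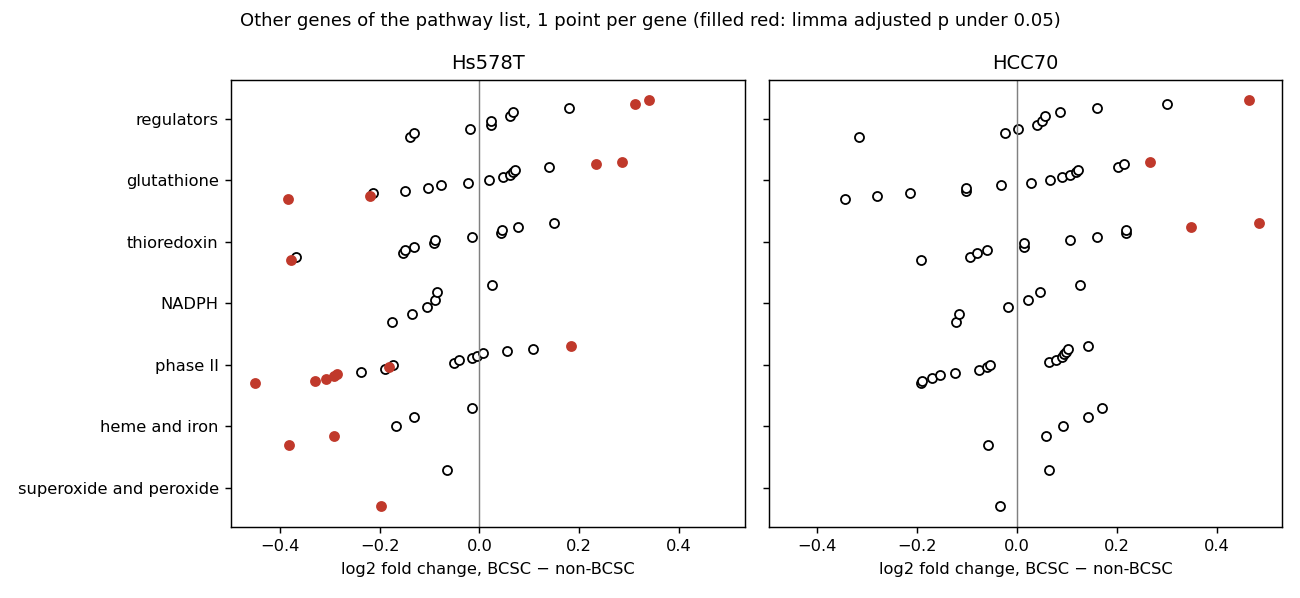
Log2 fold change of BCSC minus non-BCSC for the other genes of the pathway list in Hs578T (left) and HCC70 (right), 1 point per gene, ordered by value within each group; filled red points had limma's adjusted p under 0.05. In Hs578T 5 of 67 genes rose and 12 fell, among them 6 of 17 phase II genes, and in HCC70 4 of 65 rose.

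With KIF20A sgRNA #1 none of the 10 members passed the test, with adjusted p between 0.694 and 0.840 by limma. None had an unadjusted p under 0.05 and none had groups that did not overlap, whereas 7% of the 12852 genes tested had such a p and 13% did not overlap (5.73% with the sgRNA higher and 7.3% with it lower). No gene of the whole table passed with limma (0%) or with edgeR on recovered reads, and 899 had an unadjusted p under 0.05. DESeq2 on recovered reads called 16 genes of the whole table. None of these was a member, which is near so small a background. Of the pathway list 68 genes could be tested and 0 passed, with 6 at an unadjusted p under 0.05. The RNA of KIF20A itself did not pass either, as given above.

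NFE2L2 measured 144, 157 and 219 CPM with sgCtrl and 206, 203 and 169 CPM with the sgRNA. NQO1 measured 171, 158 and 196 CPM with sgCtrl and 201, 178 and 187 CPM with the sgRNA, a difference of 0.11 (SE 0.12) on the log2 scale. HMOX1 measured 15.1, 13.6 and 11.2 CPM with sgCtrl and 11.5, 10.7 and 9.30 CPM with the sgRNA, a difference of -0.31 (SE 0.17). In each of these genes sgCtrl replicate 3 lay among the sgRNA libraries or next to them. SRXN1 measured 7.26, 5.53 and 3.27 CPM with sgCtrl and 2.74, 3.37 and 4.03 CPM with the sgRNA, a difference of -0.50 (SE 0.24) on 131 to 331 reads. Without sgCtrl replicate 3, 144 genes of the table passed but 0 members did. With 1 library left out, NFE2L2 differed by between 0.05 (without sgCtrl replicate 1) and 0.35 (without sgCtrl replicate 3), against 0.17 with all. GCLM differed by between 0.05 (without sgRNA replicate 2) and 0.42 (without sgCtrl replicate 3), against 0.26 with all. SRXN1 differed by between -0.76 (without sgCtrl replicate 3) and -0.28 (without sgCtrl replicate 1), and the lowest adjusted p of the 3 genes in these fits was 0.0866 by limma.

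The other members differed by between -0.19 and 0.26 on the log2 scale in all 6 libraries. TXNRD1 was 1387 ± 143 CPM with sgCtrl and 1551 ± 79.7 with the sgRNA, GCLM was 122 ± 26.0 and 147 ± 39.4 CPM, and GCLC was 29.5 ± 2.93 and 33.2 ± 1.67 CPM. KEAP1 was 114 ± 6.62 and 105 ± 10.9 CPM, SOD2 was 181 ± 11.4 and 167 ± 12.2 CPM, and GPX4 was 286 ± 42.2 and 250 ± 20.9 CPM. Each of these differences was within 2 SE.

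**Figure D3:**
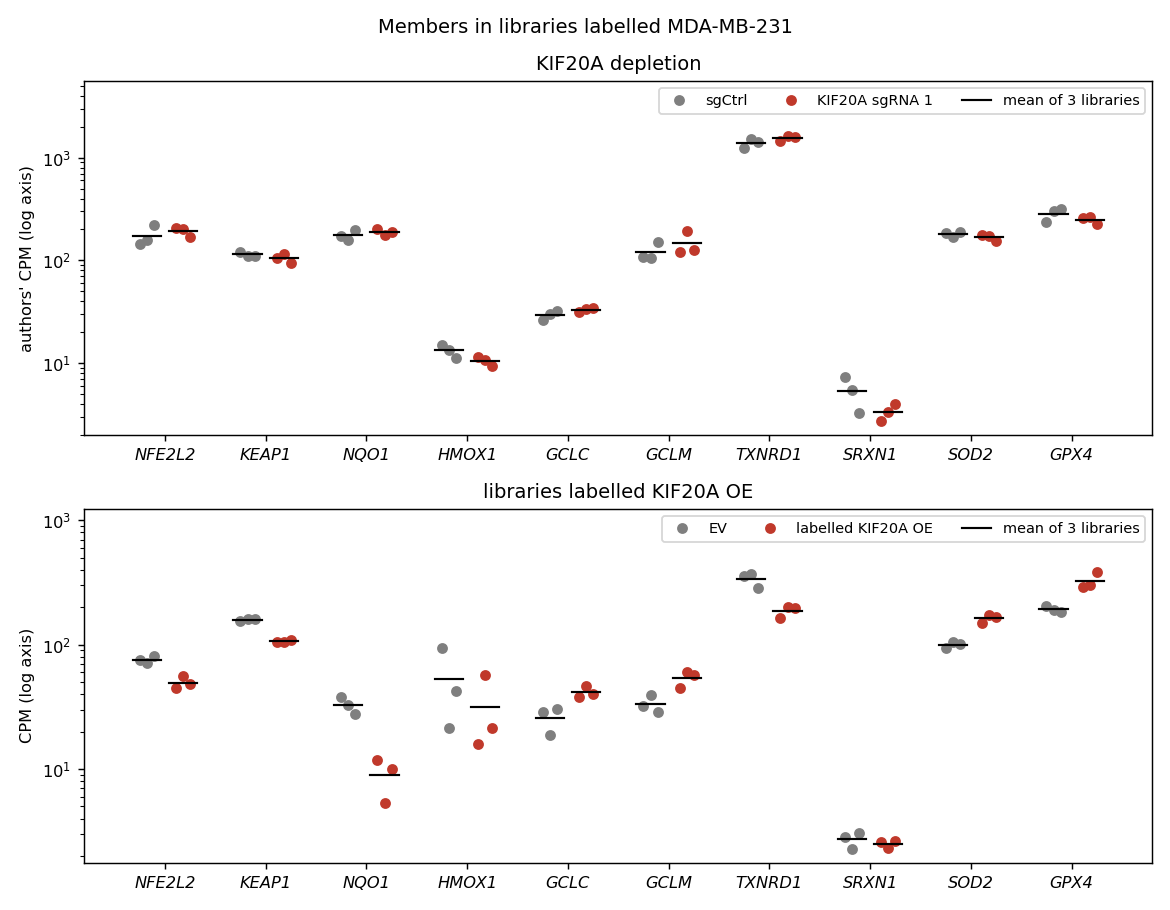
CPM on a log axis for the 10 members in each library of the depletion table (top; grey sgCtrl, red KIF20A sgRNA #1) and of the overexpression table (bottom; grey EV, red labelled KIF20A OE, whose markers go against the MDA-MB-231 label), with means of 3 libraries as black lines. CPM carry no length term, so levels are to be compared within a gene; the groups overlap for every member in the upper panel, and 8 of the 10 do not overlap in the lower.

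In the libraries labelled KIF20A OE, 8 of the 10 members passed the test, 4 as higher and 4 as lower, but so did 69.7% of the 15265 genes tested (46.2% as higher and 23.4% as lower). The same 8 had groups that did not overlap and an unadjusted p under 0.05, against 74.1% of all genes without overlap (48.9% higher, 25.2% lower) and 72.2% with such a p. Over all genes the log2 fold change had a median of 0.37 in the deposited CPM and 0.03 after scaling by the median of ratios, so each value is also given relative to the median of all genes. The marker lists described above moved with the same libraries, and their part in the members' values was not tested. NQO1 had the largest change among the members. It measured 37.8, 33.0 and 27.5 CPM with EV, and the libraries labelled KIF20A OE had 11.8, 5.32 and 10.0 CPM. The groups lay far apart, at 32.8 ± 5.18 and 9.03 ± 3.33 CPM (SD, n = 3), and the log2 fold change was -1.80 (SE 0.28, adjusted p = 0.000513 by limma), or -2.17 relative to all genes.

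The regulators were lower as well. NFE2L2 measured 74.9, 71.2 and 81.9 CPM with EV, and the libraries labelled KIF20A OE had 44.5, 55.5 and 48.7 CPM. It fell by 0.61 (SE 0.13, adjusted p = 0.00311 by limma). KEAP1 measured 155, 160.5 and 161 CPM with EV, and the libraries labelled KIF20A OE had 105.5, 105 and 109 CPM. It fell by 0.57 (SE 0.10, adjusted p = 0.000927 by limma). The ratio of NFE2L2 to KEAP1 within a library overlapped between the groups, with a log2 difference of -0.04 (exact permutation p = 0.8). That of NQO1 to NFE2L2 did not overlap, with a log2 difference of -1.30 (exact permutation p = 0.1, the smallest possible). The ratios of TXNRD1 to NFE2L2 and of GCLM to GCLC overlapped. TXNRD1 measured 357, 367 and 284 CPM with EV, and the libraries labelled KIF20A OE had 164, 199 and 198 CPM. It fell by 0.84 (SE 0.14, adjusted p = 0.000835 by limma). Relative to all genes these values were -0.98 for NFE2L2, -0.95 for KEAP1 and -1.21 for TXNRD1.

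Among the members that were higher were both subunits of the glutathione enzyme. GCLC measured 28.8, 18.7 and 30.4 CPM with EV, and the libraries labelled KIF20A OE had 38.3, 46.3 and 40.0 CPM (log2 fold change 0.68, SE 0.20, adjusted p = 0.0151 by limma). GCLM measured 32.1, 39.4 and 29.0 CPM with EV, and the libraries labelled KIF20A OE had 45.1, 60.5 and 57.2 CPM (0.68, SE 0.17, adjusted p = 0.00699 by limma). Their groups did not overlap, but relative to all genes both values were only 0.31, and under the median of ratios the adjusted p was 0.179 for GCLC and 0.131 for GCLM by limma. GCLC also missed the threshold without replicate 2 of the libraries labelled KIF20A OE, with an adjusted p of 0.0590 by limma.

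SOD2 measured 94.5, 105 and 101 CPM with EV, and the libraries labelled KIF20A OE had 151, 173 and 167 CPM. It rose by 0.70 (SE 0.11, adjusted p = 0.000555 by limma). GPX4 measured 204, 191 and 185 CPM with EV, and the libraries labelled KIF20A OE had 291, 300.4 and 384 CPM. It rose by 0.74 (SE 0.13, adjusted p = 0.00124 by limma). Relative to all genes the values were 0.33 and 0.36. With edgeR and with DESeq2 on recovered reads GPX4 missed the threshold, at adjusted p = 0.0509 and 0.0568, and SOD2 passed with both.

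HMOX1 and SRXN1 did not pass. HMOX1 measured 93.4, 21.4 and 42.7 CPM with EV, and the libraries labelled KIF20A OE had 16.0, 57.6 and 21.5 CPM. The groups overlapped, and the log2 fold change of -0.68 had an SE of 0.58. It was -0.15 without EV replicate 1 and -1.21 without replicate 2 of the libraries labelled KIF20A OE. SRXN1 measured 2.86, 2.27 and 3.06 CPM with EV, and the libraries labelled KIF20A OE had 2.57, 2.299 and 2.62 CPM on 41 to 60 reads, with a log2 fold change of -0.09 (SE 0.18). Relative to all genes the values were -1.06 for HMOX1 and -0.46 for SRXN1.

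**Figure D4:**
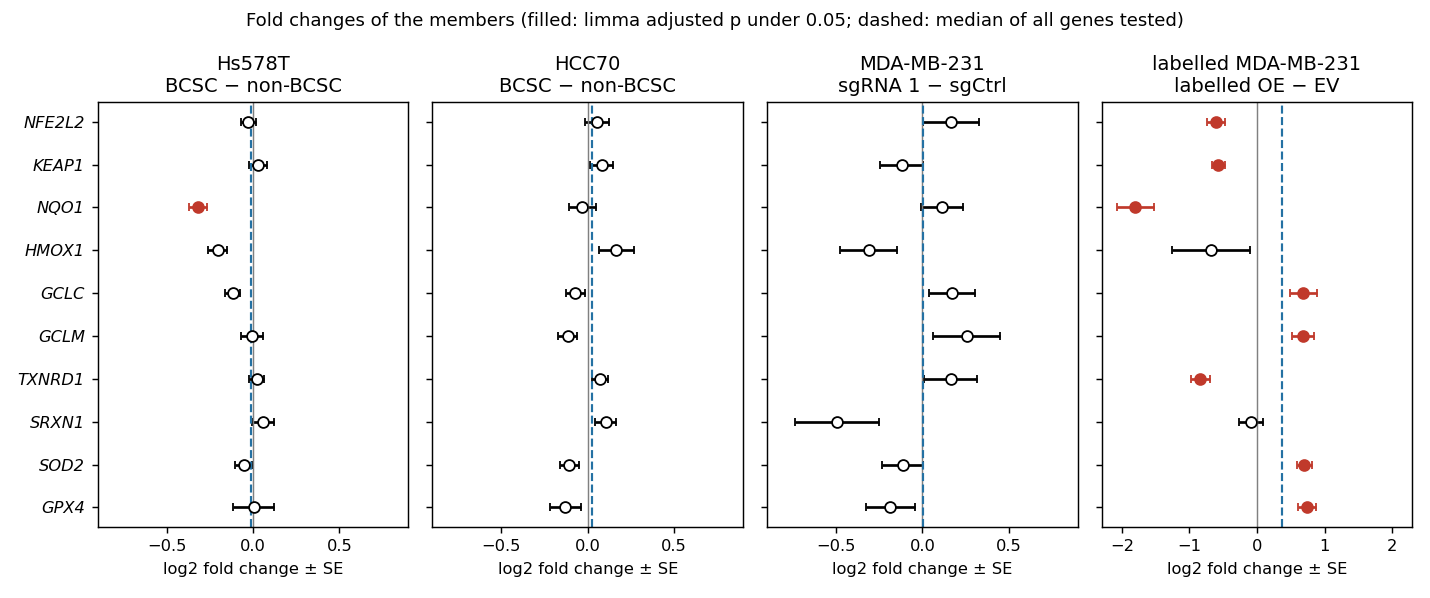
Log2 fold change with its SE for the 10 members in the 4 comparisons; filled red points had limma's adjusted p under 0.05, the dashed line is the median of all genes tested, and the axis of the last panel is wider. NQO1 passes in Hs578T at -0.32 and in the libraries labelled KIF20A OE at -1.80, where 8 members pass and the median of all genes is 0.37.

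Over the members, 4 were called higher and 4 lower in the deposited CPM, 2 and 4 after the median of ratios, and 3 and 5 after quantile normalization, where SRXN1 passed as lower (-0.77, adjusted p = 0.00525 by limma). With edgeR and with DESeq2 on recovered reads 5 members passed. NFE2L2, KEAP1, NQO1 and TXNRD1 as lower and SOD2 as higher passed under every scaling and tool run, and no member's direction turned. Over all genes the calls split into 7055 higher and 3579 lower in the deposited CPM, where 69.7% of genes were called. They split into 5135 and 5013 after the median of ratios (66.8% called) and into 5546 and 4665 after quantile normalization. The member counts thus stand beside calls for most genes. The shares over all genes with edgeR and with DESeq2 are not reported here.

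**Figure D5:**
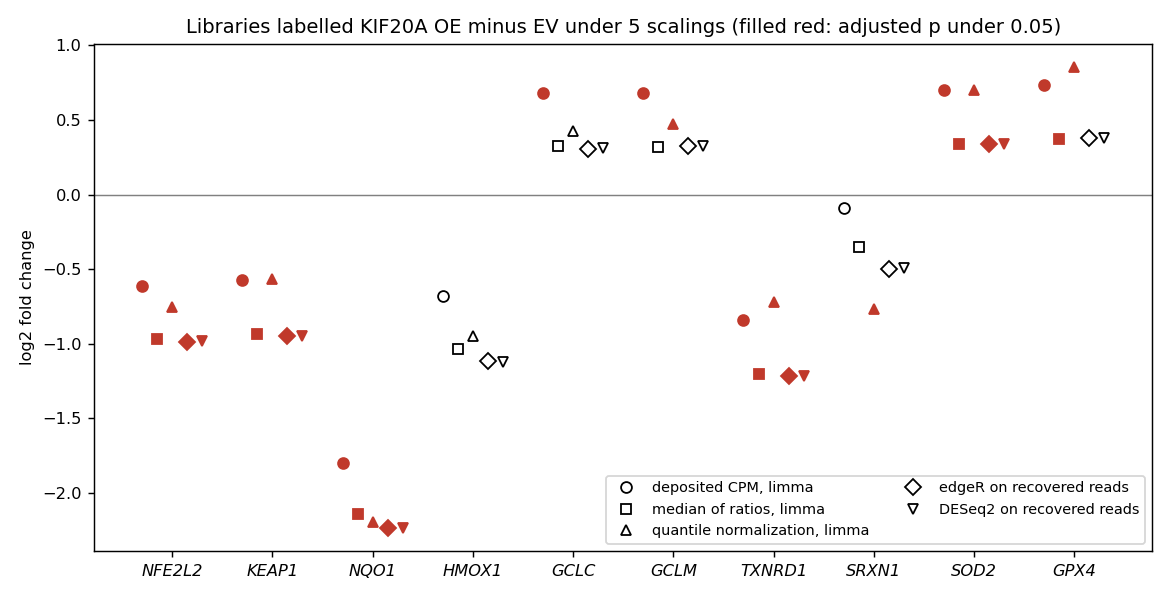
Log2 fold change of the 10 members in the libraries labelled KIF20A OE minus EV under 5 scalings or tools, told apart by the shape of the point; filled red points had an adjusted p under 0.05. NQO1 stays between -2.23 and -1.80, whereas GCLC moves from 0.68 in the deposited CPM to 0.31 with edgeR, where it does not pass.

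Of the pathway list, 65 genes could be tested in the overexpression table, 21 rose and 21 fell, or 64.6% in all against 69.7% of all genes. After the median of ratios 15 rose and 28 fell, or 66.2% in all against 66.8% of all genes. The calls over all genes were then 5135 higher and 5013 lower. Of the 12 further thioredoxin and peroxiredoxin genes 8 rose and 1 fell, and of the 10 further regulators 1 rose and 6 fell. Of the 15 glutathione genes tested 5 rose and 4 fell, of the 14 phase II genes 4 and 7, and of the 6 NADPH genes 1 and 0. Of the 5 heme and iron genes 1 rose and 1 fell, and of the 3 superoxide and peroxide genes 1 and 2. In the deposited CPM, from which these subgroup counts come, 46.2% of all genes were called higher and 23.4% lower. The subgroups were not tested against these shares. SESN2 rose from 20.4 ± 4.79 to 119 ± 9.09 CPM, EPHX1, an epoxide hydrolase, from 20.3 ± 6.74 to 86.1 ± 12.1 CPM, and PIR, an iron-binding nuclear protein, from 1.12 ± 0.383 to 12.6 ± 1.04 CPM. SOD3, the extracellular superoxide dismutase, fell from 55.9 ± 27.8 to 0.353 ± 0.214 CPM, and AIFM2, which guards membrane lipids through coenzyme Q, from 41.2 ± 4.19 to 1.61 ± 0.539 CPM. ABCC3, an exporter of conjugates, fell from 27.2 ± 18.7 CPM to 0, 2 and 0 reads in the 3 libraries labelled KIF20A OE. SOD3 and ABCC3 reached the minimum mean of 1 only through EV, so entering the test already required a higher EV value.

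On GRCh38 with the GENCODE 44 annotation NQO1 lies at chr16:69706996-69726668 on the minus strand, and 575 of its 2971 exon bases overlap a long noncoding RNA on the opposite strand. NFE2L2 (chr2:177218667-177392756, minus strand) shares 3509 of 14975 exon bases with HNRNPA3 on the opposite strand and 2037 with a long noncoding RNA on its own strand, which had 96 to 128 reads in the depletion libraries and 18 to 48 in those with EV or labelled KIF20A OE. SRXN1 (chr20:646615-653200, minus strand) shares 2292 of 2528 exon bases with a readthrough gene on its own strand. That gene was listed at 0 to 5 reads in the depletion and overexpression tables, and SRXN1 at 41 to 331. The libraries were stranded, but whether the counting used strand, and how it treated shared bases, is not given in the sources used here.

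KEAP1 lies at chr19:10486125-10503558 on the minus strand, HMOX1 at chr22:35380361-35394214 on the plus strand and TXNRD1 at chr12:104215779-104350307 on the plus strand. GCLC lies at chr6:53497341-53616970 and GCLM at chr1:93885199-93909456, both on the minus strand, and GPX4 at chr19:1103982-1106791 on the plus strand. SOD2 lies at chr6:159669069-159762529 on the minus strand, where of its 18144 exon bases 939 are shared with SOD2-OT1 on its own strand and 437 overlap WTAP on the opposite strand. SOD2-OT1 had 0 to 20 reads in the depletion libraries and 112 to 183 in those with EV or labelled KIF20A OE.

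Likeness was read across all 24 libraries, with each gene put on a common scale within each table. Values are Pearson's r over libraries that share tables, depth and groups, given as a description. The libraries with EV and those labelled KIF20A OE, which differ in cell markers, enter every r. The most alike of all genes was drawn from a far larger set than the most alike member, so these values are not comparable. For each member the most alike other member had r between 0.33 and 0.58, the highest being SOD2 with GCLM, followed by NFE2L2 with TXNRD1 at 0.57 and GCLC with GCLM at 0.55. NQO1 was most like NFE2L2 among the members, at 0.33. Among the 9280 genes with a mean of at least 1 in all tables, NFE2L2 was most like VAMP3 and PTP4A2 (both 0.92), NQO1 most like SP110, ARPC3 (both 0.81) and ADPRM (0.80), and HMOX1 most like KIF1C (0.85), ABCF3 and TRIM16 (both 0.84).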

How the data were processed

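Stranded libraries of poly-A RNA were made for 24 samples. The submitters' processing notes name HISAT2 2.0.5, featureCounts 1.5.0-p3 and GRCh38, without roles. For each sorted line the authors deposited TPM, which are scaled for length. The deposited depletion table holds a signal, reads that the authors divided by 1 factor per library and named CPM. The deposited overexpression table holds CPM without a length term. The columns carry 0 unused samples.

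Within each comparison of 6 libraries, genes averaging 1 or more were tested by limma 3.58.1 in R 4.3.3 with a trend, two-sided, on log2(value + 1), which understates changes of low genes, with Benjamini-Hochberg adjustment over all genes. Whole reads were recovered (100% of values above 0 within 0.01 of a whole read). For TPM a multiplier was chosen per gene to make its values whole, so this share does not check the reads of the sorted lines. The recovered reads were used for depth, for the read numbers printed with some genes, and for edgeR 4.0.16 and DESeq2 1.42.0. Reads recovered from TPM can be too low by a common divisor for some genes. The fits were tested on simulated data. Replicate numbers, from the titles, did not pair the samples in any comparison.

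The members and lists were chosen with earlier results of these data known, so their counts are descriptions beside those of all genes. The named genes are the 10 members, KIF20A, marker lists and, per comparison, up to 3 pathway genes with the largest rise and fall among those called. For NFE2L2, NQO1 and HMOX1 they also include up to 3 genes with the most alike pattern, of which 1 is not reported here. The alternatives were a pseudocount of 0.1, no minimum, a minimum of 10, the median of ratios, quantile normalization, a replicate block, edgeR, DESeq2 and each library left out. They were extended to the pathway list after the data were seen. Locations come from GENCODE 44 and promoters from RefSeq on GRCh38.p14. Python 3.11.15 was used with pandas 2.3.3, numpy 2.4.6 and, for the plots, matplotlib 3.10.9.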

Additional observations from a re-analysis of the deposited data

Results flagged for a closer look

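The BCSC effect differed between the lines for 8 genes of the pathway list by limma's interaction test over 12 libraries (adjusted p under 0.05), and for 0 of the 10 members. These are 12.5% of the 64 list genes tested, against 7.11% of 11668 genes, of whose 830 calls 656 were positive. The differences are HCC70 minus Hs578T on the log2 scale. TXNIP, an inhibitor of thioredoxin, had a difference of 0.72 (SE 0.16), with 1.14 to 2.64 TPM in Hs578T against 196 to 261 TPM in HCC70. FTL had 0.55 (SE 0.15), MGST2 0.47 (SE 0.10) and EPHX1 0.42 (SE 0.10). ABCC3 had 0.37 (SE 0.09), SESN2 0.34 (SE 0.07) and RBX1, the RING subunit of cullin ligases, 0.29 (SE 0.08). NFE2L3 alone was negative, at -0.34 (SE 0.09). The line is also the table and the batch, which cannot be told apart. Each of the 8 lost the call without at least 1 library.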

How the results depend on the processing

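The members called in Hs578T stayed at 1 under the 8 alternatives that keep all libraries and ranged from 0 to 1 with 1 library left out, being 0 without non-BCSC replicate 1 or 2. No member was called in HCC70 or under depletion under any alternative. In the libraries labelled KIF20A OE the count was 5 with edgeR and 5 with DESeq2 against 8, and 7 to 8 with 1 library left out. Over all genes 10634 were called there in the main fit, and 9576 to 10364 with 1 library left out. For the difference between the lines the count of members was 0 to 1, being 1 without replicate 3 of either HCC70 fraction. The replicate numbers did not pair the samples, since the correlations of same-numbered deviations lay between -0.16 and 0.19. In the depletion table some differently numbered samples correlated more. These were sgCtrl replicate 1 with sgRNA replicate 3 (0.26), 2 with 1 (0.28) and 3 with 2 (0.25). The replicate block joined equal numbers only, so it does not test such an order. The replicate block left the members called at 1 in Hs578T, 0 in HCC70, 0 in the depletion table, 0 for the difference between lines and 8 in the libraries labelled KIF20A OE, where each of the 6 samples correlated best with its own number. It moved the pathway list from 17 to 11 in Hs578T, from 4 to 1 in HCC70 and from 8 to 3 for the difference between lines. Without a minimum the list had 10 in Hs578T and 2 in HCC70, with the median of ratios 2 in HCC70 and 4 for the difference, and with DESeq2 8 in HCC70. With 1 library left out the list ranged from 1 to 15 for Hs578T, from 1 to 2 for HCC70, from 0 to 2 under depletion (2 without sgCtrl replicate 3) and from 1 to 8 for the difference. Over all genes, edgeR and DESeq2 called 1808 and 1475 in Hs578T against 953, and 754 and 1158 in HCC70 against 374, and HCC70 had 178 without a minimum, 233 with the median of ratios, 235 with quantile normalization and 128 with the block. The block gave 302 calls against 830 for the difference between the lines. The difference between the lines had 656 calls higher and 174 lower, or 403 and 333 after the median of ratios. The causes were not tested. Of 718 member values under an alternative, 12 lost and 3 gained a call and no called value turned. SRXN1 in the depletion and overexpression tables had the fewest reads of the members, 41 to 331.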
